A study of Bos taurus with 12 samples.

Results

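Cytosines in CpG dinucleotides were collected here at which each cow that remained in the herd was highly methylated in blood DNA. Of the 196275 CpG cytosines that the authors listed as different between 2 groups of cows, 12718 (6.48%) had 80% methylation or more in every MRG cow with a value, and these are called MRG-high sites below. All 12 animals were dairy cows of 1 farm kept under the same conditions, and blood was drawn before the groups were known. MSG comprised 6 cows that were culled within 1 year for mastitis complications not identified at sampling, and MRG comprised 6 cows of similar ages that were still in the herd after 1 year. No treatment, breed, parity, blood cell count or batch was given by the labels. The group label is thus an outcome recorded after sampling, and the 2 groups also differ in whether the cow stayed in the herd.

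Mastitis is an inflammation of the udder, most often after bacterial infection. In mammals most CpGs outside CpG islands carry methylated cytosine on both strands, because the maintenance methyltransferase DNMT1 copies the mark onto the new strand after replication. A methylation value near 100% is therefore the usual state of intronic and intergenic CpGs, whereas active promoters and enhancers are commonly unmethylated. Blood is a mixture of cell types with partly different methylation, and the listed sites alone do not give the cell makeup of a sample. In the enzymatic assay used, a cytosine that a cow's own genome carries as thymine looks like an unmethylated one. Genotypes were not analysed here, and their part in any value below was not tested.

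The sites were selected on the MRG percent values themselves, and the authors had listed only sites whose group difference was at least 25 points in their deposited table. Every MRG-high site was therefore bound to be lower in MSG, and all 12718 were. The group contrast at these sites is given as a description with no test. The 1757 sites just inside the rule, with their lowest MRG cow from 80% to below 82%, averaged 92.1% in MRG and 60.3% in MSG. The 351 sites just outside it, with the lowest MRG cow from 78% to below 80% and lower in MSG, averaged 90.9% and 59.2%.

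The MRG cows lay close together. Their means over the MRG-high sites ran from 95.6% to 96.0%, with a group mean of 95.8% ± 0.158 (SD, n = 6), and 58.5% of their values were exactly 100%. The lowest MRG cow of a site was at a median of 88.9%, it was at 90% or above at 5387 sites, and all MRG cows with a value stood at 100% at 1182 sites. Of the 12718 sites, 10300 had a value for all 6 MRG cows and 2418 for 5 of them. The rule sets these high levels.

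The MSG cows were far apart. MSG cow 3 averaged 57.9%, MSG cow 1 averaged 58.8%, MSG cow 6 averaged 64.6% and MSG cow 2 averaged 64.9%. MSG cow 5 averaged 67.3% and MSG cow 4 averaged 72.5%. The group mean was 64.3% ± 5.44 (SD, n = 6), and each MSG cow lay below each MRG cow, a direction that the choice of sites sets. The cows were numbered only to name them, and no cow of one group is paired with a cow of the other. Over all 196275 listed sites the same MSG cows averaged 53.9% to 55.1%, with MSG cow 3 the lowest and MSG cow 5 the highest. Over those listed sites the MRG cows averaged 51.8% to 54.0%, so that they were not closer together than the MSG cows there. Per site, the MSG mean minus the MRG mean had a median of -30.0 points and ran from -74.7 to -12.7. The authors' deposited table gave a median difference of -30.7 points for the same sites.

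Single MSG values fell at 3 levels rather than around the group mean. Of 75235 MSG values at MRG-high sites, 44.4% were at 80% or above and 21.4% were exactly 100%. A further 43.2% lay from 20% to below 70%, with a median of 44.4% and quartiles at 35.7% and 53.3%. Between these levels, from 70% to below 80%, were 3.95% of the values. At the bottom, 6.82% were exactly 0, while 0.234% were above 0 and below 10%. An MSG value at an MRG-high site was thus mostly either at 80% or above or in the broad middle range, and less often at 0. The plot of single values shows the gaps between these levels.

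**Figure D1:**
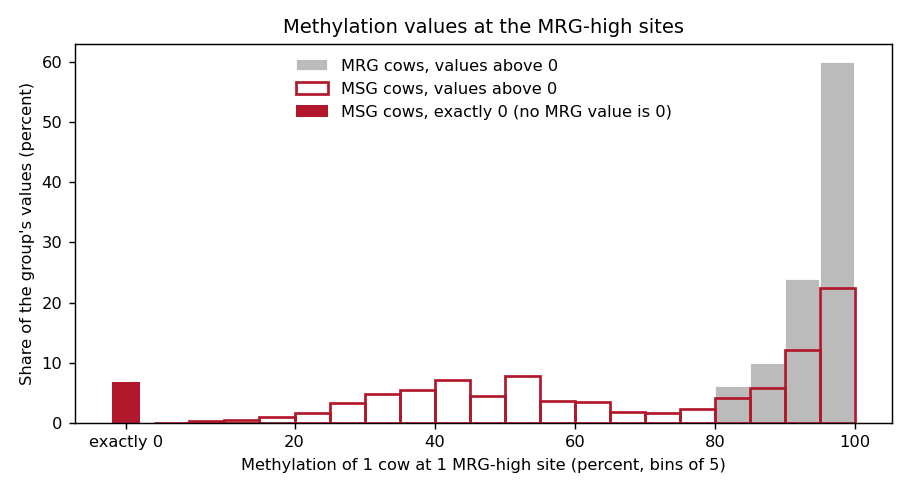
Share of the values of each group (y axis, percent) by methylation of 1 cow at 1 MRG-high site (x axis, percent, bins of 5 points, with values of exactly 0 drawn apart on the left). MRG values lie at 80% and above by the choice of sites, while MSG values form a group at 80% and above, a broad group around 44.4% and a bar at exactly 0 (6.82%).

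The same 3 levels were present at the listed sites of opposite kind. At the 16213 sites (8.26% of those listed) at which every MSG cow with a value was at 80% or above, the MSG mean was 95.6% ± 0.232 and the MRG mean 64.1% ± 5.47 (SD, n = 6 each). Of the MRG values there, 43.5% were at 80% or above, 43.1% lay from 20% to below 70% with a median of 44.4%, and 6.52% were exactly 0. The middle level therefore had the same median in MSG cows at MRG-high sites as in MRG cows at these opposite sites. Whether the 2 shares differ was not tested. At the other 80025 listed sites lower in MSG, by contrast, 40.8% of the MSG values were exactly 0 and 13.2% were at 80% or above. Those sites had been listed without the requirement on MRG cows, and the difference follows in part from it.

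Each MSG cow had all 3 levels, in different proportions. MSG cow 1 was at 20% or below at 14.1% of its MRG-high sites, against 9.96% in MSG cow 3, 8.45% in MSG cow 5 and 6.07% in MSG cow 4. MSG cow 3 was most often between 20% and 80%, at 56.7% of its sites, and MSG cow 4 least often, at 36.7%. The share at 80% or above was 33.4% in MSG cow 3 and 57.2% in MSG cow 4, with the other 4 cows from 38.4% to 49.7%. MSG cow 4 was thus the cow most like MRG at these sites, yet 38.5% of its values were below 70%. Leaving out any 1 MSG cow left the MSG mean over the same sites between 62.7% and 65.6%. The sites were not listed anew without that cow, so this range cannot show how far the list depended on 1 cow.

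**Figure D2:**
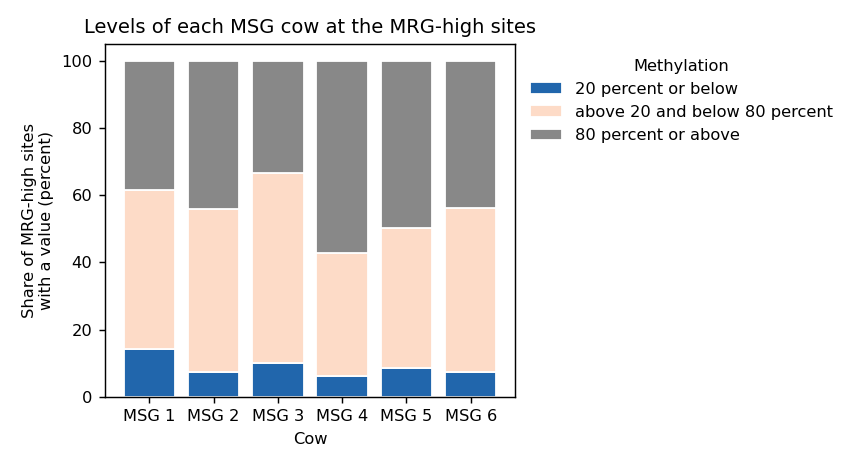
Share of the MRG-high sites with a value (y axis, percent) at which each MSG cow (x axis) stood at 20% or below, between 20% and 80%, and at 80% or above, as parts of 1 bar. MSG cow 1 has the largest share at 20% or below (14.1%) and MSG cow 4 the largest share at 80% or above (57.2%).

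At most MRG-high sites the MSG cows were divided among themselves. An MSG cow below 70% is called a low cow here, a limit chosen after the values were seen. There were 3 low cows at 6239 sites (49.1%), 2 at 2988 (23.5%) and 4 at 2713 (21.3%). Only 150 sites had 1 low cow, 579 had 5 and 49 (0.385%) had all 6, and no site had 0. Since a site had to differ by at least 25 points to be listed, a site with 0 or 1 low cow could hardly be listed. A cow at exactly 0 was present at 4529 sites (35.6%): 3958 had 1 such cow, 537 had 2 and 34 had 3. By comparison, 87.2% of the other sites lower in MSG had an MSG cow at 0, and 33.8% of the opposite sites had an MRG cow at 0.

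Few MRG-high sites separated the groups cow by cow. At 616 of them (4.84%) the highest MSG cow was below the lowest MRG cow, where 0.971% of all listed sites were lower in MSG without overlap. Since the rule used this contrast, nothing is read from that share. In limma fitted to all 196275 sites with Benjamini-Hochberg adjustment, 0 MRG-high sites had an adjusted p under 0.05 (0.0% of all listed sites were called lower), and the lowest adjusted p in the table was 0.0781. With no adjustment, 4997 MRG-high sites had a limma p under 0.05, where 24.8% of all listed sites were called lower in this way. These shares of all listed sites also count the sites higher in MSG, which could not be called lower, and are thus no like base. The 48602 sites behind the 24.8% all came from the 12718 MRG-high sites and the 80025 other sites lower in MSG. The exact permutation test, whose smallest possible p for 6 cows against 6 is 0.00216, called 0 of all listed sites after adjustment and had an unadjusted p under 0.05 at 69606 in either direction. Here and below, p-values measure only the spread between these 12 cows. Both tables of the authors hold only rows that had been listed for this same contrast. Low p-values were thus favoured in advance, and the adjustment over such rows holds no error rate. The counts called or not called are therefore descriptions only.

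The 10 MRG-high sites with the widest gap between the groups, at most 1 per run of neighbouring sites, had all 6 MSG cows below 70%. Positions are those of the authors' files, build ARS-UCD1.2, and the nearest gene is the one the authors named. The widest gap, 48.1 points, was at chromosome 27 position 28494434 (+ strand), annotated as intronic, 34.8 kb upstream of the named start of NRG1, which encodes neuregulin 1, a ligand of ERBB receptors. There MSG cows 1 to 6 stood at 20%, 0%, 36.4%, 38.5%, 36.4% and 42.9%. The MRG cows stood at 92.9%, 92.3%, 100%, 90.9%, 100% and 100%, and no cow of one group reached the other.

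Of those 10 sites, 5 lay on chromosome 10 between positions 99804059 and 100614354. At the intergenic position 100614354 (+ strand) all 6 MRG cows were at 100%, and the MSG cows ran from 37.5% to 54.5% with a median of 51.5%. At position 99804059 (- strand), intergenic and nearest to GPR65, a proton-sensing receptor of leukocytes, the MRG cows were again all at 100%. The MSG cows there ran from 23.1% to 66.7% with a median of 44.0%. The other 3 lay at positions 100353801, 100357960 and 100358871 and were annotated as intronic. The authors named ZC3H14, a polyadenosine RNA-binding protein, as their nearest gene, with its start 87.8 to 92.9 kb away. The 3 sites lay past the annotated end of ZC3H14 and within the span of EML5, positions 100303249 to 100460074. Their MSG means were 54.4%, 45.3% and 39.9%, and their MRG means 95.03%, 94.6% and 97.9%. These 5 sites share their cows and their stretch of chromosome, and are not 5 separate observations.

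The other 4 of the 10 were on chromosomes 20, 6, 3 and X. At chromosome 20 position 17928706 (- strand), 122.2 kb from the microRNA gene MIR2889, MSG cows 2 and 3 were at 0% and the other 4 between 33.3% and 50%. At chromosome 6 position 2707558 (+ strand), nearest to a U6 spliceosomal RNA gene (LOC112447179), MSG cows 1 and 4 were at 0%. The other 4 MSG cows stood between 17.6% and 46.7%, and the MRG cows between 80.8% and 91.7%. At chromosome 3 position 95794904 (- strand), 40.3 kb from a SNORA31 gene (LOC112446108), MSG cow 5 was at 0% and the other 5 between 36.8% and 58.8%. At chromosome X position 54331268 (- strand), intergenic, the MSG cows ran from 25% to 56.2% and the MRG cows from 81.8% to 100%. The depth behind a value at a single site is unknown here, and these are the widest gaps among many sites.

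Both strands of a CpG mostly had the same level in a given cow. The 12718 sites were 10452 CpGs, with 6350 sites on the + strand and 6368 on the - strand, and 2266 CpGs had both strands among the MRG-high sites. Of the 10452 CpGs, 3399 (32.5%) had both strands in the authors' list and 7053 had 1. At the 2266 CpGs with both strands MRG-high, 13304 pairs of MSG values could be compared, and 93.5% of pairs fell in the same class (20% or below, between 20% and 80%, or 80% or above). In 6 pairs (0.0451%) one strand was at 20% or below and the other at 80% or above. The median absolute difference between strands was 7.14 points. Both strands of these CpGs had to be listed for a large group difference and to meet the rule in MRG, which raises this likeness.

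Neighbouring CpGs tended to have the same low cows. Pairs of adjacent MRG-high CpGs up to 500 bases apart had exactly the same set of low MSG cows in 74.4% of cases (659 of 886). The share was 69.4% for pairs 500 bases to 10 kb apart, 51.7% at 10 to 100 kb, 26.9% at 100 kb to 1 Mb and 12.5% beyond 1 Mb. Any pair of MRG-high CpGs, wherever they lay, had the same set in 2.49% of cases. The set of low cows was thus shared most often between close neighbours and still in about 1 of 2 pairs at 10 to 100 kb, beyond the reach of a short sequencing read. The opposite sites, with sets of low MRG cows, gave 69.2%, 61.9%, 47.4%, 23.5% and 12.7% over the same distances, and 2.23% for any pair. The other sites lower in MSG gave 74.3%, 62.6%, 40.4%, 22.5% and 14.4%, against 19.3% for any pair. Beyond 1 Mb the other lower sites were thus below their share for any pair, whereas MRG-high and opposite sites were above theirs. The curves were not tested against each other, and these distances and pairs were chosen after the values were seen.

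**Figure D3:**
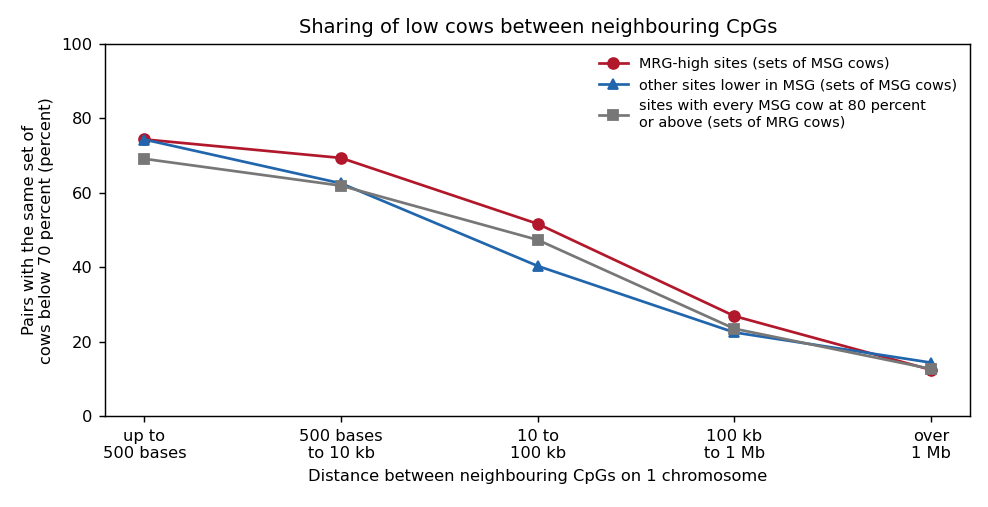
Share of pairs of adjacent CpGs on 1 chromosome with the same set of cows below 70% (y axis, percent) by their distance (x axis, 5 classes), for MRG-high sites, other sites lower in MSG and sites with every MSG cow at 80% or above. For MRG-high sites the share goes from 74.4% up to 500 bases to 12.5% beyond 1 Mb, and for the other 2 kinds of site it is also lower at each larger distance.

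Across the genome many combinations of low cows occurred. Among the 11645 MRG-high sites with a value for all 6 MSG cows, 63 different sets were seen, as many as 6 cows can form. The commonest, cows 1, 3 and 6, made up 5.40% (629 sites). It was followed by cows 1, 2 and 3 (601 sites), cows 1, 2, 3 and 6 (557) and cows 1, 3 and 5 (541). No set therefore stood for the MSG group as a whole. MSG cows 1 and 3, the 2 cows with the lowest means, belonged to each of these 4 sets.

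Within windows of 1 Mb, in contrast, 1 set often dominated. MRG-high sites were found in 1635 windows, and the 50 fullest held 3012 of them (23.7%). In the 105 windows with 20 or more MRG-high CpGs, the commonest set covered a median of 65.0% of the CpGs (14.3% to 98.1%), and more than 50% in 78 windows. It comprised 3 cows in 65 windows, 4 in 23, 2 in 11 and 5 in 6. At 98.1%, the window of chromosome 28 that starts at 8 Mb was the most uniform, with cows 1, 3 and 5 low at nearly all of its 52 CpGs. The next window on that chromosome had the same 3 cows low at 95.5% of 44 CpGs. In the 122 windows with as many opposite CpGs the median was 58.7% (16.7% to 96.8%).

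The 8 fullest windows had 7 different commonest sets of low cows. In the window of chromosome 1 that starts at 22 Mb, with 125 sites near SAMSN1, an adaptor protein of haematopoietic cells, and HSPA13, MSG cow 1 averaged 31.9%, cow 3 averaged 45.9% and cow 6 averaged 44.7%. Cows 2, 4 and 5 averaged 93.8% to 95.1%, and the MRG cows 95.7% to 97.2%. The same 3 cows were below 70% together at 89.7% of 116 sites. The window of chromosome 22 that starts at 40 Mb, with 85 sites near FHIT, had cows 1, 3 and 6 low as well, at 46.8%, 48.1% and 7.72%. Its other cows averaged 87.1% to 91.2%, below all MRG cows (93.4% to 95.9%).

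Another set of cows was low in each remaining window. On chromosome 20 from 71 Mb, with 94 sites near SLC9A3, a sodium/proton exchanger, and CEP72, a centrosomal protein, MSG cows 3, 4 and 5 averaged 44.3%, 42.7% and 44.2%. Cows 1, 2 and 6 averaged 93.5% to 95.7% there, next to 96.3% to 97.7% in MRG. On chromosome 9 from 21 Mb, with 86 intergenic sites around IBTK, an inhibitor of Bruton tyrosine kinase, cow 4 averaged 0.291% and cow 5 averaged 3.72%. In that window cow 2 averaged 50.7% and cows 1, 3 and 6 averaged 92.7% to 94.5%. The MSG means of this window thus lay near 0, near 50% and near 95%.

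On chromosome 5 from 118 Mb, with 99 sites near TAFA5, a secreted chemokine-like protein, cows 2, 3, 4 and 6 averaged 43.1% to 47.7%, and cows 1 and 5 averaged 91.0% and 93.5%. On chromosome 29 from 12 Mb, with 87 sites near RAB30, a small GTPase of the Golgi, cow 3 averaged 11.5%, cow 1 averaged 45.6%, cow 6 averaged 48.2% and cow 2 averaged 60.4%. Cows 4 and 5 averaged 95.9% and 97.0% there. On chromosome 22 from 57 Mb, with 97 sites, cow 6 averaged 12.9% and cow 4 averaged 37.2%, while cow 2, at 96.1%, was inside the MRG range. On chromosome 10 from 100 Mb, with 84 sites and 5 low cows, MSG cow 1 averaged 88.1% and the others 44.5% to 55.3%. The MRG cows averaged 96.2% to 97.1% there, so that all 6 MSG cows lay below them. In these windows the MRG cows stayed within narrow ranges by the choice of sites, and the windows were chosen after the values were seen.

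**Figure D4:**
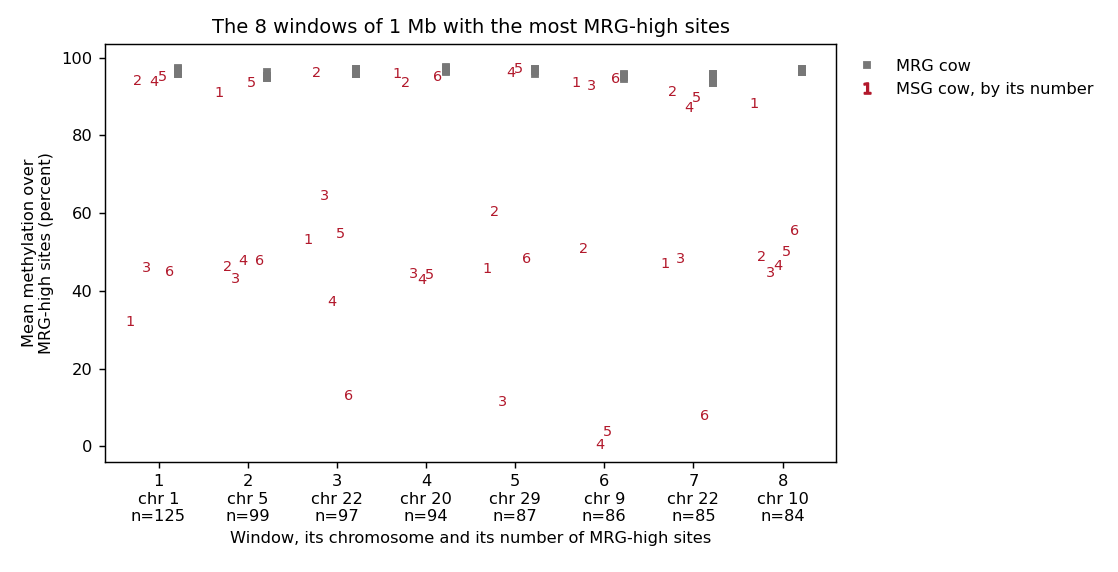
Mean methylation over MRG-high sites (y axis, percent) in the 8 windows of 1 Mb with the most such sites (x axis), 1 grey square per MRG cow and 1 red number per MSG cow, the number naming the cow. Of the 48 MSG means, 18 are at 80% or above, 21 from 35% to 55% and 5 at 20% or below, while 4 lie between these ranges, and different cows are low in different windows.

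Most MRG-high sites had no other MRG-high site within 500 bases. CpGs that were not listed or did not meet the rule are left out of this spacing, which thus depends on both choices. With neighbours joined at gaps of up to 500 bases, the sites formed 9458 runs, of which 6958 were 1 site and 69 had 5 or more sites (437 sites in all). The largest run, of 18 sites, covered chromosome 3 positions 92066484 to 92067708, intergenic and 14.0 to 15.3 kb upstream of the nearest start. MSG cows 1, 2, 5 and 6 averaged 42.7% to 50.9% there, cows 3 and 4 averaged 94.6% and 96.9%, and the MRG cows 93.7% to 97.6%. A run of 9 sites annotated as intronic, on chromosome 3 positions 95724904 to 95725542, had the same 4 cows low, at 39.9% to 47.3%. It lay 109.6 to 110.3 kb upstream of the gene named as nearest, the SNORA31 gene LOC112446108. A run of 11 intergenic sites on chromosome 22, positions 57956759 to 57957870, had MSG cow 6 at 0%, cow 2 at 94.9% and the other 4 at 45.6% to 54.8%. A run of 9 sites 7.21 to 8.06 kb upstream of RAB30, on chromosome 29 positions 12575595 to 12576445, had MSG cow 3 at 0%. In it MSG cows 1, 2 and 6 averaged 47.4% to 56.3%, and cows 4 and 5 averaged 97.3% and 98.4%.

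Other listed sites beside the MRG-high sites mostly had the same direction. Of the 3575 listed sites within 500 bases of an MRG-high site that were not MRG-high themselves, 72.8% were lower in MSG, where 43.6% of all listed sites outside the rule were. These sites come from the same cows and often the same reads. The MRG-high sites lay on all 30 placed chromosomes, with 17 on unplaced scaffolds. Chromosome 1 had the most (1117, 6.30% of its listed sites). The share was highest on chromosome 17, at 10.6%, and on chromosome 3, at 9.61%, and lowest on chromosome 24, at 3.07%.

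Of the MRG-high sites, 53.7% were intergenic, 38.3% intronic, 5.75% (731) in promoters as the authors annotated them, 1.46% in exons and 0.566% (72) in 3′ UTRs. A single site was in a 5′ UTR. Among the other sites lower in MSG, 58.9% were intergenic, 34.6% intronic, 5.17% promoter and 0.921% exonic. Among all listed sites the shares were 58.2%, 34.9%, 5.44% and 0.943%. MRG-high sites were thus somewhat more often in gene bodies than the listed sites as a whole, and about as often in promoters. Their median distance to the nearest start was 36.6 kb, against 47.1 kb for the other lower sites and 45.2 kb for all listed sites. The opposite sites had 52.0% intergenic, 40.04% intronic and a median distance of 35.5 kb, close to the MRG-high sites. Neighbouring sites are not independent, and none of these shares was tested.

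The authors named a nearest gene for 9737 MRG-high sites, 2893 symbols of the 11830 with any listed site (24.5%). The promoter with the most was that of TBRG1, a nuclear protein that regulates cell growth, with 11 sites at 7 CpGs between 1.39 kb upstream and 2.13 kb downstream of annotated starts, on chromosome 29. MSG cows 1, 2, 3 and 6 averaged 44.8%, 53.2%, 47.5% and 52.0% over these sites, and cows 4 and 5 averaged 97.5% and 97.2%. The MRG cows averaged 94.1% to 97.9%, so that 4 MSG cows lay far below the MRG range and 2 inside it. A run of 13 sites 10.8 to 12.1 kb past the start, chromosome 29 positions 28115268 to 28116599, gave the same split. It lay beyond the annotated end of the gene, with 11 sites annotated as intergenic and 2 as downstream. There MSG cows 1, 2, 3 and 6 averaged 44.9% to 51.6%, and cows 4 and 5 averaged 97.3% and 94.0%. Of the 45 listed sites that the authors named for TBRG1, 39 were MRG-high.

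Neighbouring genes on chromosome 3 shared their low cows too. The promoter of LOC615989 (protein FAM151A), with 10 sites, had MSG cows 1, 2, 5 and 6 at 41.3% to 46.1% and cows 3 and 4 at 87.4% and 95.3%. The promoter of MROH7, with 6 sites at 3 CpGs, had MSG cow 1 at 0%. Cows 2, 5 and 6 averaged 49.7%, 51.2% and 43.2% there, and cows 3 and 4 averaged 94.0% and 94.6%. In both promoters the cows below 70% were the same 4, and the MRG cows ran from 91.2% to 98.8% and from 93.3% to 97.1%.

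The remaining promoters named by count had 5 or 6 sites each. NR2C2, an orphan nuclear receptor also called TR4, had MSG cows 4 and 6 at 0% and cows 1, 3 and 5 at 43.1%, 48.3% and 57.6%, with cow 2 at 97.5%. NEDD9, a scaffold protein of integrin signalling, had MSG cow 1 at 0% and cow 5 at 43.5%, with the other 4 at 87.8% to 98.1%. ADAM12, a membrane metalloprotease, had cow 3 at 0% and cow 2 at 46.0%, with the other 4 at 85.4% to 97.5%. All 3 promoters thus held 1 or more MSG cows with no methylation at any of their MRG-high sites and 1 or more cows as high as MRG. PLXNB2, a semaphorin receptor, had cows 2, 3, 4 and 6 at 37.5% to 64.5%. LCN1, a lipocalin, had cows 1, 2, 5 and 6 at 44.5% to 54.98%. HPS4, part of a complex that forms lysosome-related organelles, had cows 2, 3 and 6 at 42.7% to 48.4%. The cows outside these sets averaged 95.4% to 98.6% in the 3 promoters, inside or near the MRG range. A U6 spliceosomal RNA gene on chromosome 27 (LOC112444666) had cow 6 at 0%, cow 2 at 47.9% and the others at 91.2% to 95.6%. These U6 copies belong to a large family of near-identical genes, and reads can be hard to place there.

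Inside genes, DNM1L, the GTPase of mitochondrial fission, had the most MRG-high sites, 36 intronic sites at 21 CpGs of chromosome 5 between positions 77170766 and 77201911. MSG cows 1 and 3 averaged 6.95% and 7.64%, cow 5 averaged 46.9%, and cows 2, 4 and 6 averaged 96.1%, 98.5% and 97.1%. The MRG cows averaged 96.3% to 98.0%, and cows 1, 3 and 5 were below 70% together at 32 of 33 sites. Of the 3 high cows, cow 2 lay just below the MRG range and the other 2 within or above it.

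Other long genes gave similar divisions, some with other cows and some with the same. CDK14, a cyclin-dependent kinase, had 24 sites with MSG cows 1, 2 and 6 at 39.5%, 43.7% and 43.7% and the others at 92.7% to 96.6%. The same 3 cows were low at 21 of 23 sites spread over chromosome 4 positions 7942710 to 8293657. NUP210, a nuclear pore glycoprotein, had 19 sites with cows 1, 5 and 6 at 45.1%, 49.7% and 42.0% and the others at 94.97% to 98.0%. NTRK3, the receptor of neurotrophin-3, had 20 sites with cow 3 at 17.4%, cows 1 and 5 at 45.2% and 39.9%, and the others at 89.7% to 94.2%. SNTG1, a syntrophin, had 20 sites with cow 1 at 4.72%, cow 5 at 44.9% and cow 3 at 60.5%. In both SNTG1 and NTRK3 the commonest set of low cows was 1, 3 and 5, as in DNM1L, although the genes lie on different chromosomes. It held at 12 of 20 SNTG1 sites and 16 of 18 NTRK3 sites, and was among the commonest sets of the genome (541 sites). The commonest set held at 7 of 15 sites in FHIT, 9 of 16 in EML5 and 10 of 18 in LGR5, described next.

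In 4 gene bodies all 6 MSG cows averaged below the MRG cows. LGR5, a receptor of R-spondins known from epithelial stem cells, had 19 sites with MSG cow 2 at 0.292%, cow 6 at 40.6%, cow 1 at 76.1% and the rest at 88.9% to 92.4%, next to 92.5% to 96.3% in MRG. FHIT, a nucleotide hydrolase, had 17 sites with cow 6 at 0%, cows 1 and 3 at 51.4% and 50.9%, and the rest at 80% to 88.3%. EML5, a microtubule-associated protein, had 18 sites with 5 MSG cows at 45.4% to 51.2% and cow 1 at 92.1%. NR2C2 had 17 sites in its body, where cow 6 averaged 1.68% and cow 4 averaged 15.4%, and cow 2 averaged 94.4% next to 94.6% in the lowest MRG cow. The separation was thus at most 3.01 points in each of these genes and rests on the highest MSG cow. ZC3H7B, a zinc finger protein, had 18 sites with cow 2 at 0%, cows 1, 3, 4 and 5 at 48.6% to 52.2% and cow 6 at 96.5%, inside the MRG range.

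**Figure D5:**
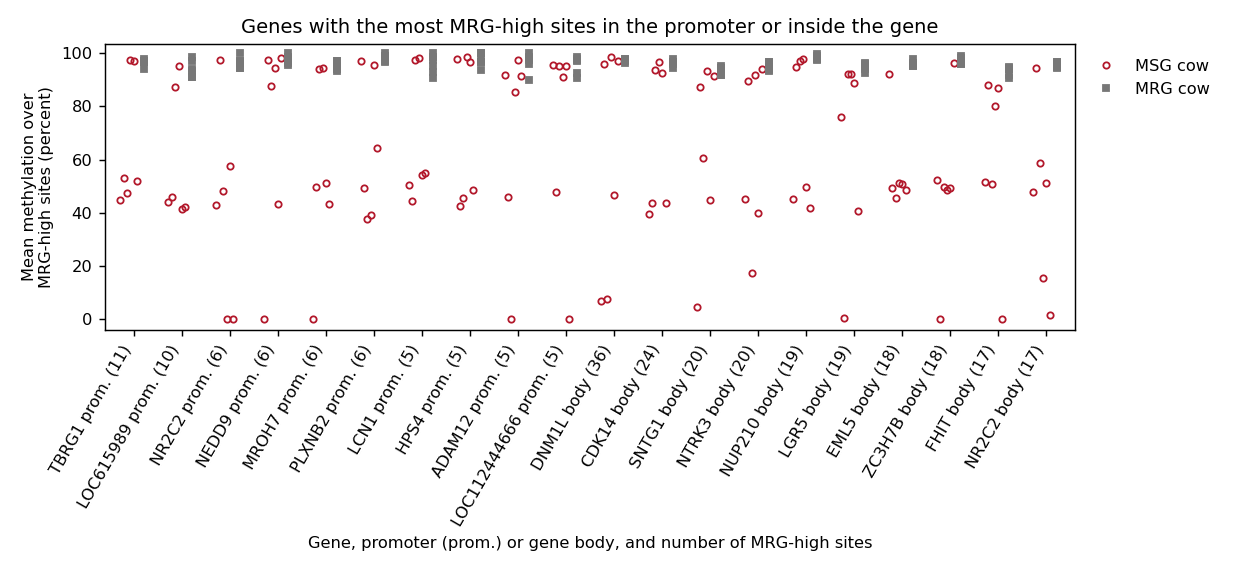
Mean methylation over MRG-high sites (y axis, percent) in the 10 promoters and 10 gene bodies with the most such sites (x axis, number of sites in brackets), 1 red circle per MSG cow and 1 grey square per MRG cow. Of the 60 MSG means of gene bodies, 24 are at 80% or above, 24 from 35% to 55%, 9 at 20% or below and 3 above 55% and below 80%; of the 60 of promoters these numbers are 26, 26, 6 and 2.

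Genes of 10 pathway lists (immune, mammary, DNA methylation and imprinted genes) and of 6 lists of blood cell markers were counted apart, next to an MRG-high share of 6.48% over all listed sites and 24.5% of all symbols. On the pathway lists, 62 of 236 genes with a listed site (26.3%) had an MRG-high site, and these made up 210 of 2625 listed sites (8.0%). On the marker lists, 17 of 73 genes (23.3%) had one, and these made up 26 of 921 listed sites (2.82%). Whether these shares differ from those of all genes was not tested. A site was counted for the nearest gene that the authors named, also where it lay far outside that gene. By list the share of listed sites ran from 0.813% for neutrophil markers to 13.8% for DNA methylation enzymes and readers. In the 4 lists with the highest such shares, the 2 genes with the most sites held over 50% of them. Only sites lower in MSG could be MRG-high, and these were 50 of 168 listed sites for imprinted genes but 92 of 120 for antigen presentation. Of the lower sites, 38 of 114 were MRG-high for complement and antimicrobial genes and 15 of 64 for DNA methylation genes. The order of the lists thus depends on the base.

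In the chemokine list, 11 of 34 genes with a listed site had an MRG-high site (42 of 348 sites). CXCR4, the CXCL12 receptor by which leukocytes are held in the marrow, had 23 of these, all intergenic, from 243.7 kb upstream to 37.4 kb downstream of its start. MSG cows 1 and 2 averaged 15.6% and 23.5%, cow 3 averaged 49.4%, cow 6 averaged 65.4%, and cows 4 and 5 averaged 96.2% and 96.4%. The MRG cows averaged 92.8% to 97.6%. ACKR3, a scavenger receptor of CXCL12, had 4 sites with an MSG range of 38.8% to 94.2%, and CXCL2, a neutrophil attractant, had 3 sites with a range of 46.1% to 97.2%. In all 3 genes the highest MSG cow was inside the MRG range.

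Complement and antimicrobial genes had 38 of 287 listed sites in the group, from 8 of 19 genes. C8B, a chain of the membrane attack complex, had 20, with MSG cow 5 at 8.57%, cow 1 at 34.0%, cows 2 and 6 at 47.5% and 42.6%, cow 3 at 58.0% and cow 4 at 91.6%. All 6 were below the MRG cows (92.8% to 94.3%), by 1.21 points for the highest. These sites reach from 238.5 kb upstream to 54.9 kb downstream of the start, so that several genes may lie among them. MASP1, a protease of the lectin pathway, had 5 sites with an MSG range of 33.1% to 90.8%. MBL2, its partner lectin, had 4 sites with a range of 34.9% to 87.4%, and both ranges were below all MRG cows.

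Pattern recognition genes had 27 of 217 sites, from 7 of 21 genes. NLRP12, an inflammasome-related regulator of leukocytes, had 15 intergenic sites with MSG cow 2 at 0%, cows 4 and 6 at 51.9% and 58.1%, and cows 1, 3 and 5 at 93.7% to 96.2%. NLRP1, an inflammasome sensor, had 7 sites with MSG cows at 34.5% to 95.2%, and LBP, which binds lipopolysaccharide, had 1 intronic site with 35.7% to 92.9%. In none of the 3 genes were all 6 MSG cows below all MRG cows. Among NF-kappaB and JAK-STAT genes, 5 of 25 had 17 sites. TNIP3, an inhibitor of NF-kappaB signalling, had 10 of them with cow 1 at 0%, cow 2 at 42.3% and cow 6 at 56.8%, and IKBKB, its activating kinase, had 4 sites with a range of 41.9% to 95.9%. IKBKE had 1.

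Cytokine genes had 14 of 554 sites, from 9 of 40 genes, with 5 named for IL15, a growth factor of NK and memory T cells. All 5 were intergenic, between 173.9 kb upstream and 91.1 kb downstream of its start. At these, MSG cows 3, 4 and 6 averaged 44.7%, 46.9% and 38.0%, and the others 88.3% to 97.5%. The interleukin-1 receptor genes IL1R2 and IL1R1 had 2 and 1, all intergenic, 44.2 kb downstream and 18.0 kb upstream of their starts. MSG cow 1 was at 0% at these sites of both genes. Antigen presentation genes had 6 of 120 sites. Near the class I genes BOLA-NC1 and BOLA, MSG cows averaged 26.7% to 100% and 43.8% to 100%, and BOLA-DRA, the class II alpha chain, had 1 site at which cow 5 was at 0%. The class I genes belong to a family of similar copies, so that reads may be shared among them. Among adhesion genes, ARHGAP15, a Rac regulator of leukocytes, had 10 of 17 sites, all intronic, with cow 3 at 0.714%, cows 2, 4 and 6 at 44.5% to 49.7%, and cows 1 and 5 at 98.0% and 99.2%. ITGB2, the common chain of leukocyte integrins, and JAM3, a junctional adhesion protein, had 3 each, with ranges of 7.69% to 100% and 34.4% to 97.9%.

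DNA methylation genes had 15 of 109 sites, from 5 of 13 genes. MBD4, a glycosylase that repairs mismatches at methylated CpGs, had 5 intronic sites with MSG cow 6 at 0%, cows 1, 4 and 5 at 52.2% to 55.4%, and cows 2 and 3 at 93.6% and 94.7%. MBD2, which binds methylated DNA, had 4 sites with a range of 26.3% to 93.0%. These lay outside the gene, 92.6 to 615.6 kb from its start. ZBTB38, a zinc finger protein that also binds methylated DNA, had 3 sites with a range of 31.4% to 100%. The imprinted genes, of which 1 parental copy is methylated in control regions, had 11 of 168 sites, with 4 near DLK1, 3 near GRB10 and 1 in ZIM2. A CpG methylated on only 1 parental copy in MRG is outside the rule by construction. Mammary genes had 24 of 271 sites, of which 19 were named for NPFFR2, a neuropeptide receptor gene, from 76.1 kb upstream to 163.7 kb downstream of its start. There MSG cow 6 averaged 2.18%, cow 1 averaged 27.2%, cow 4 averaged 46.0%, and the others 70.2% to 92.3%. ELF5, a factor of alveolar cells, had 2 sites, and STAT5A, which carries the prolactin signal, had 1 in an exon.

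For the blood cell marker genes, counted by the nearest gene that the authors named, 2.82% of listed sites were MRG-high next to 6.48% of all listed sites. Sites higher in MSG are in both bases and could not be MRG-high. Their part differs by list, as 23 of 123 neutrophil sites but 114 of 212 erythroid and platelet sites were lower in MSG. The T cell list had 10 of 262 listed sites and the monocyte list 6 of 169. The erythroid and platelet list had 6 of 212 and the NK cell list 2 of 85. The neutrophil list had 1 of 123 and the B cell list 1 of 70. CD4 had 3 sites, with MSG cows at 36.0% to 83.3% and MRG cows at 95.8% to 100%. CTLA4, an inhibitory receptor of T cells, had 2 sites with an MSG range of 33.3% to 94.4%, and LEF1, a factor of naive T cells, had 2 with a range of 15.4% to 93.8%. FCRL1 of B cells, PRF1 and NCR1 of NK cells, and NCF4 of neutrophils each had 1. Among monocyte genes MSR1 had 1, intergenic and 74.5 kb from its start, and LYZ had 1. Among erythroid genes GYPC had 3, all intergenic and 215.8 to 236.3 kb from its start, SLC4A1 had 2 and GYPB had 1. Inside the named gene lay 5 sites of the T cell list, 2 of the erythroid and platelet list and 1 of the B cell list. Of the NK cell, neutrophil and monocyte lists, 0 sites did. Listed sites at marker genes measure methylation and not the number of cells, and the part of cell makeup in any value was not tested.

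The authors' second table, of windows of 500 bases (tiles), pools neighbouring sites of the same cows. Of its 1227 tiles, 40 held 85 MRG-high sites, and all 40 were lower in MSG. In limma fitted to all tiles with Benjamini-Hochberg adjustment, 32 of the 40 had an adjusted p under 0.05, where 31.6% of all tiles were called lower. That share, 388 tiles, also has the tiles higher in MSG in its base, whereas 537 of all tiles were lower in MSG. The authors had listed the tiles for this contrast, and the rule used it too. Nothing is therefore read from the count of 32 among the 40, which also depended on single cows. It was 8 without MSG cow 3, where 14.6% of all tiles were called lower, and 12 to 18 without MSG cow 1, 2 or 6 or MRG cow 1, 2 or 5. It was 20 without MRG cow 6, 24 to 36 without any other single cow, and 7 by the exact permutation test with adjustment, which called 6.68% of all tiles lower. Over these tiles the MSG cows averaged 59.3% ± 12.5 and the MRG cows 87.8% ± 1.14 (SD, n = 6 each). Every MRG cow was at 80% or above in 23 of the 40, and in 26 of all 1227 tiles.

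The tile with the most, 6 sites, was on chromosome 17 from 52033751 to 52034250, in an intron of the annotation, 5.94 kb upstream of the named start of TCTN2, a protein of the ciliary transition zone. MSG cows 1, 2, 3 and 6 stood at 42.1%, 38.8%, 57.9% and 62.7%, and cows 4 and 5 at 98.0% and 98.2%, next to 96.6% to 99.2% in MRG. A tile 243.3 kb upstream of CXCR4, on chromosome 2 from 61006251 to 61006750, had 4 sites. There MSG cows 1 and 2 stood at 29.7% and 33.3%, cows 3 and 6 at 62.6% and 64.6%, and cows 4 and 5 at 97.6% and 94.6%. The low cows of this tile also had the lowest means over the single sites near CXCR4, where exactly these 4 were low at 11 of 22 sites. Those single sites begin at position 61006374, within the tile, so this likeness is no separate observation.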

How the data were processed

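Blood DNA of 12 cows was read by enzymatic methyl-seq. Per the submitters' processing notes, fastp 0.23.1, Bismark, DRAGEN and ChIPseeker 1.32.1 were used with build ARS-UCD1.2; neither their roles nor the differential test was given in the sources used here. Both tables that the authors deposited, of sites and of tiles, give 1 percent value per cow beside the authors' difference in points, p-value, q-value and distance to the start, as the headers show. Among sites in the authors' deposited table, the smallest absolute difference was 25 points and the largest q-value 0.01.

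Sites were kept where every MRG cow with a value was at 80% or above. MSG minus MRG was fitted over each whole table with limma 3.58.1 (R 4.3.3) on percent, two-sided, Benjamini-Hochberg, threshold 0.05, tested on simulated data. An exact permutation test was the alternative. The tile table held 36 columns of read counts that names did not tie to cows; they were not used, so depth is unknown, no interval for it is given, and the logistic test on counts planned for such data was not possible. Strands were merged to CpGs for neighbour pairs, and runs joined sites at gaps of up to 500 bases.

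Named were, by rule, the 10 genes with the most MRG-high sites in promoters and the 10 with the most inside genes, the 6 largest runs, the 10 sites with a value for all 12 cows and the widest gap between the lowest MRG and highest MSG cow (1 per run), and the 3 genes per list with the most sites. One gene that this rule names is not reported here. Windows, sets of low cows and tiles were named after their values were seen. The sites and lists were chosen with earlier results of these data known. No genome was used, so no sequence is shown.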

Additional observations from a re-analysis of the deposited data

Results flagged for a closer look

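Among the means per cow of the named promoters, genes, runs, sites and windows, 176 groups of cows were examined for 1 cow far from the others, and 15 had one. For normally distributed values chance gives about 1 such group in 20. Values bounded at 80% and 100% with many ties, as in MRG, need not follow that rate, which was not measured here, and overlapping entries share their sites.

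In MSG, 4 entries had a cow apart. MSG cow 1 was the highest in the body of EML5, at 92.1%, and in the chromosome 10 window that holds EML5, at 88.1%, with the other 5 cows at 44.5% to 55.3% in that window. MSG cow 5 was the lowest at chromosome 3 position 95794904, at 0%, and near LEF1, at 15.4%.

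In MRG, where the rule keeps all values at 80% or above, 11 entries had a cow apart. The lowest cow stood at 94.1% in the TBRG1 promoter and at 94.97% in the run named for LOC112446108. It stood at 94.7% at chromosome 20 position 17928706 and at 85.7% at chromosome 3 position 95794904. Among list genes it stood at 97.0% near BOLA-NC1, at 92.9% near BOLA, at 80% in BOLA-DRA and at 82.8% near DLK1. It stood at 90.9% near PRF1, at 91.7% near NCF4 and at 83.3% at GYPB. Many of these rest on 1 or 2 sites with the other cows at 100%.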

How the results depend on the processing

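With a floor of 90% in every MRG cow 5387 sites met the rule, of which 45.0% were intronic and 46.2% intergenic. A floor of 75% gave 15176 sites, a floor of 85% gave 9117, and leaving out each MRG cow gave 14741 to 16329. The MSG mean was 66.7% over sites with no cow at 0. Those sites were 39.4% intronic and 52.5% intergenic. Promoter sites within 1 kb of the start made up 1.91%. The share of sites with an MSG cow at 0 was 25.7% to 33.4% with 1 MSG cow left out, fewer cows giving fewer chances of a 0. Leaving out each cow, limma called 0 to 74 sites over the whole table, 1 without MSG cow 4 and 74 without MSG cow 6, and 397 to 797 tiles, below the 899 of all 12 cows in each case and lowest without MSG cow 3. The exact permutation test called 213 tiles, and the cause was not tested. All these counts come from rows already listed for this contrast and hold no error rate. With low cows counted below 80% instead of 70%, an alternative chosen after the values were seen, adjacent CpGs shared their set in 63.9% of pairs 500 bases to 10 kb apart, 46.0% at 10 to 100 kb, 21.7% at 100 kb to 1 Mb and 9.48% beyond 1 Mb. Of 174 named means, recomputed as 1172 values, 8 moved by over 1 SD, all MRG means over sites with no cow at 0. With a cow left out 0 did so, but leaving out 1 cow cannot move a mean by over 1 SD of the same cows. That 0 therefore does not show whether a named mean rests on 1 cow. A coverage minimum was not run, since site values came without coverage. No paired analysis was possible because replicate numbers only name the cows and no label pairs them.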
